A study of Arabidopsis thaliana with 6 samples.

Results

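miR165 and miR166 are sister families of plant microRNAs. Their counts were followed in small RNA libraries of Arabidopsis thaliana seedlings that differed in genotype and in exposure to a bacterial elicitor. Members were the intervals whose deposited name begins with miR165 or miR166, mature or star, which gave 18 of the 679 intervals counted. They include ath-miR165a, ath-miR165a-star, ath-miR166a, ath-miR166a-star and ath-miR166e-star, written below without the species prefix. The star is the partner strand of the mature miRNA in the duplex cut from the hairpin precursor. Rows with identical counts in all 6 libraries were counted once, which left 9 of 549 rows. All seedlings were of the Col-0 ecotype and 10 days old, and 1 library was sequenced for each group. The groups were parg1-1 with 100 nM flg22, parg1-1 untreated, parp1parp2 with 100 nM flg22, parp1parp2 untreated, WT with 100 nM flg22 and WT untreated. flg22 is a peptide of bacterial flagellin that plants perceive as a sign of bacteria. By their names, parg1-1 affects a poly(ADP-ribose) glycohydrolase, which removes ADP-ribose polymers from proteins, and parp1parp2 affects a pair of polymerases that add them. Which kinds of allele these are is not stated. Per the labels' protocols, which are the same for all groups, seedlings went from agar plates into water a day ahead of flg22. The time for which flg22 was applied is not stated. The libraries came from whole seedlings, so fewer cells that make a miRNA and less of it per cell cannot be told apart.

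Both families guide Argonaute proteins to the transcripts of the class III homeodomain leucine zipper (HD-ZIP III) genes. These encode transcription factors that specify the upper (adaxial) side of leaves and pattern the shoot meristem and vascular tissue. The miRNAs restrict the HD-ZIP III transcripts from the lower (abaxial) side. AGO1 mediates this repression, and AGO10 binds the same miRNAs and keeps them from AGO1 in the meristem.

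The sequences show how the members can be told apart. They were read from the TAIR10.1 reference of RefSeq at the deposited intervals and are written 5′ to 3′ in DNA letters. The mature sequences carry the seed (bases 2 to 8) and the base at which the families differ in capitals, because this base is all that separates their reads.
miR165a: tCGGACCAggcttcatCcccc
miR166a: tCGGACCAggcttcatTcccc
Set against miR165a, miR166a has the substitution C17T, counted from the 5′ end, and the seeds are identical. The miR165a sequence stood at 2 genes, MIR165a on chromosome 1 and MIR165b on chromosome 4. The miR166a sequence stood at 7 genes, MIR166a on chromosome 2, MIR166b on chromosome 3 and MIR166c to MIR166g on chromosome 5. The mature counts therefore cannot be assigned to a gene. The sources used here do not state how reads with a mismatch were assigned, so miR165a, the less abundant of the near-identical pair, is uncertain to that extent.

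The star strands do carry gene information. Shown against miR166a-star, with differing bases in capitals, they were the following, except miR166f-star, whose interval starts at another place in the duplex and is shown without capitals.
miR166a-star and miR166b-star: ggactgttgtctggctcgagg
miR166C-star: ggaTtgttgtctggctcgagg
miR166d-star: ggaAtAttgtctggctcgagg
miR166e-star: ggaAtgttgtctggcAcgagg
miR166g-star: ggaAtgttgtTtggctcgagg
miR166f-star: gaatgatgcctggctcgagacc
miR165a-star: ggaAtgttgtctggAtcgagg
miR165b-star: ggaAtgttgtTtggAtcgagg
The 9 star intervals held 8 distinct sequences, since MIR166a and MIR166b share theirs. From miR165a-star to miR165b-star the substitution was C11T, and from miR166a-star to miR166e-star the substitutions were C4A and T16A. All 9 mature intervals and 4 of the 9 star intervals (miR165a, miR166a, miR166b and miR166e) coincided with annotated miRNAs of the reference.

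The HD-ZIP III sites that these miRNAs pair with were located in the annotated transcripts as the best ungapped match. They are shown with the bases that do not pair with miR166a by Watson-Crick rules in capitals.
PHB: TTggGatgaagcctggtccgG
PHV: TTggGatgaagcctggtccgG
REV: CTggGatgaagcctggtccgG
ATHB8: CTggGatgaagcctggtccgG
ATHB15: CTggaatgaagcctggtccgG
PHB (AT2G34710), PHV (AT1G30490) and REV (AT5G60690) promote adaxial identity, and ATHB8 (AT4G32880) and ATHB15 (AT1G52150) act in vascular development. Each site lay in coding sequence across an exon junction, between exons 4 and 5, or 5 and 6 in ATHB8. On TAIR10.1 the PHB site spanned chr2:14642530-14642666 on the minus strand and the REV site chr5:24398787-24398898 on the plus strand. In PHB, PHV, REV and ATHB8 the site had 3 mismatches to miR165a and 4 to miR166a. In ATHB15 it had 4 mismatches to miR165a and 3 to miR166a. A G opposite the miR166a base at position 17 was counted as a mismatch here. The transcripts themselves were not measured in these libraries.

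Counts over all intervals ran from 247508 to 408805 per library, and from 120015 to 188047 with identical rows counted once. All later values use the second total. Levels are in scaled CPM, which is CPM on that total after TMM scaling (edgeR). Where a library had 0 counts, up to 3 remain possible, equal to 15.5 to 25.8 scaled CPM. Like all intervals given here, that covers counting error alone, because each group has 1 library. PCR copies of a molecule cannot be recognised, so even the counting error may be larger than the intervals show. Sequences that reached 10 counts in 2 or more libraries were tested, 141 in all and 6 of the 9 member rows. These were miR166a, miR165a, miR166a-star, miR165a-star, miR166e-star and miR165b-star.

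miR165 and miR166 were among the most abundant miRNAs in every library. Together they took 12.6% and 13.8% of the counts in parg1-1 with flg22 and untreated, 12.6% and 14.2% in parp1parp2, and 14% and 10.3% in WT. The untreated WT library was the lowest and the untreated parp1parp2 library the highest. Over all intervals as deposited, where a read of miR166a is listed at 7 places, the families filled 29.5% to 37.2% of a library.

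miR166a had 14321 and 16941 counts in parg1-1 with flg22 and untreated, 10823 and 12928 in parp1parp2, and 18936 and 10980 in WT. On the scaled CPM scale its level was 87720 and 100800 in parg1-1, 92900 and 103000 in parp1parp2, and 97940 and 75760 in WT, in the same order. The other 5 libraries lay within 87720 to 103000 scaled CPM, and untreated WT lay below them. miR165a had 5637 and 5259 counts in parg1-1 with flg22 and untreated, 3629 and 4536 in parp1parp2, and 6455 and 2939 in WT. Its level was 34530 and 31300 scaled CPM in parg1-1, 31150 and 36140 in parp1parp2, and 33390 and 20280 in WT. Untreated WT was again below the other libraries, whose values ran from 31150 to 36140.

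In the order of mean level over the 6 libraries, miR166a stood at place 4 of 141 with 93020 ± 10110 scaled CPM (SD over the 6 libraries, which differ in condition). Its neighbours were miR159b (95700 ± 14050), which targets MYB transcription factors, and miR158a (81440 ± 14210), and the ranges of all 3 overlapped. miR165a stood at place 9 with 31130 ± 5649, between miR396a (39510 ± 6678), which targets growth-regulating factors, and miR162a (27980 ± 13790), which targets DCL1. The ranges overlapped here too. miR166a varied little. The SD of its log2 level over the libraries was 0.16, and 9 of the 141 sequences had a smaller one. The SD was 0.30 for miR165a, and the median over all sequences tested was 0.38. That median includes rows with few counts, where counting error is larger. Among the neighbours in level, the SD was 0.21 for miR159b, 0.25 for miR158a, 0.24 for miR396a and 0.63 for miR162a.

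**Figure D1:**
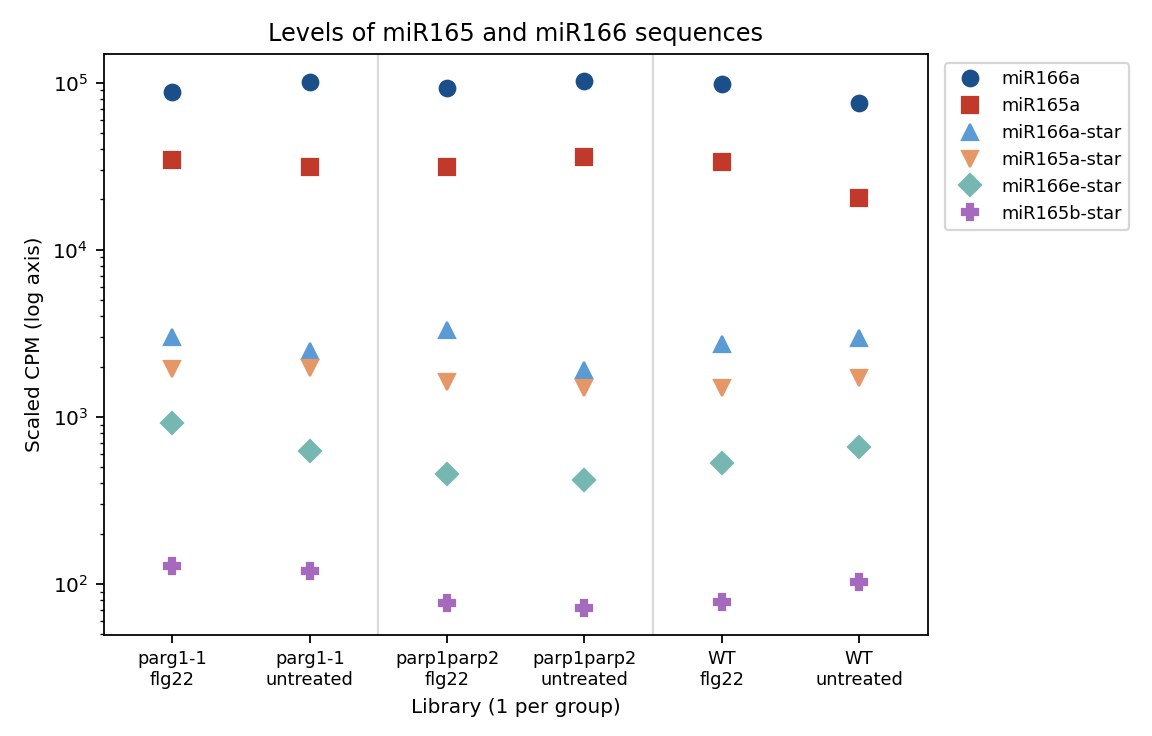
Level of each tested miR165 and miR166 sequence in scaled CPM on a log axis, 1 point per library, with flg22 left of untreated in each genotype. miR166a and miR165a have their lowest points in untreated WT, at 75760 and 20280.

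The balance between the mature families was close to 1 read of miR165a to 3 of miR166a. miR165a made up 28.2% and 23.7% of the mature counts in parg1-1 with flg22 and untreated, 25.1% and 26.0% in parp1parp2, and 25.4% and 21.1% in WT. The share was higher with flg22 in parg1-1 and WT and lower with flg22 in parp1parp2. It averaged 26.3% ± 1.7 with flg22 and 23.6% ± 2.4 untreated (SD, n = 3 each), a difference of 2.66 percentage points (exact permutation p = 0.3, two-sided). The test did not pair libraries by genotype, and the smallest p that 3 libraries against 3 allow is 0.1. Among star counts the miR165 share was larger, with 34.4% and 40.0% in parg1-1 with flg22 and untreated, 31.0% and 39.9% in parp1parp2, and 32.7% and 33.4% in WT. It was above the mature share in 6 of 6 libraries, and the 95% Clopper-Pearson intervals of the shares did not overlap in any of them.

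The star strands came mostly from a few genes. Over the 6 libraries they had 4702 counts, against 113384 for the mature strands, so mature reads outnumbered star reads 24.1-fold. The sequence shared by MIR166a and MIR166b had 2490 counts, 53.0% of the star total. miR165a-star had 1558 counts (33.1%) and miR166e-star 559 (11.9%). miR165b-star had 89 counts, or 1.89%. miR166C-star had 5 counts and miR166d-star had 1. miR166f-star and miR166g-star had 0, which allows up to 0.0638% of the star counts over the 6 libraries.

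Within miR165 the genes can be compared by their stars alone, because MIR165a and MIR165b give the same mature sequence and their stars differ at C11T only. How reads with a mismatch were assigned is not stated, so the rarer miR165b-star is uncertain to that extent. The same holds for miR166C-star, which differs from miR166a-star at C4T only. miR165a-star took between 93.8% and 95.4% of the miR165 star counts in every library. In parg1-1 with flg22 and untreated these were 316 counts of miR165a-star and 21 of miR165b-star, then 330 and 20. They were 188 and 9, then 186 and 9, in parp1parp2, and 290 and 15, then 248 and 15, in WT. The precursors are printed with the star and mature arms in capitals, so that the arms that were counted can be seen.
MIR165a, chr1:78927-79037, minus strand: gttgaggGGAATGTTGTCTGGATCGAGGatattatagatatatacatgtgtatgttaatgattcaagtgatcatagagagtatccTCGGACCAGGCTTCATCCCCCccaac
MIR165b, chr4:369831-370012, minus strand: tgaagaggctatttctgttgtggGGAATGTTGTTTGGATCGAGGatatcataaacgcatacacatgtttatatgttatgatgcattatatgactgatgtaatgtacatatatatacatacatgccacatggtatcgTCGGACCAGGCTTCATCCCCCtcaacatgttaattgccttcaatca
The MIR165a locus (AT1G01183) overlaps AT1G08765, an RNA gene on the other strand, and the files carry no strand, so reads of these genes cannot be told apart. In the remaining 8 loci no other annotated gene overlapped a member interval. When the precursors were folded (RNAfold, minimum free energy), 8 of 9 had the 2-base 3′ overhang at both ends of the duplex that Dicer-like enzymes leave. The exception was MIR166f, where the deposited intervals left overhangs of 4 and 3 bases. The 0 counts of miR166f-star therefore belong to an interval that is offset from such a duplex, while those of miR166g-star belong to one that is not.

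**Figure D2:**
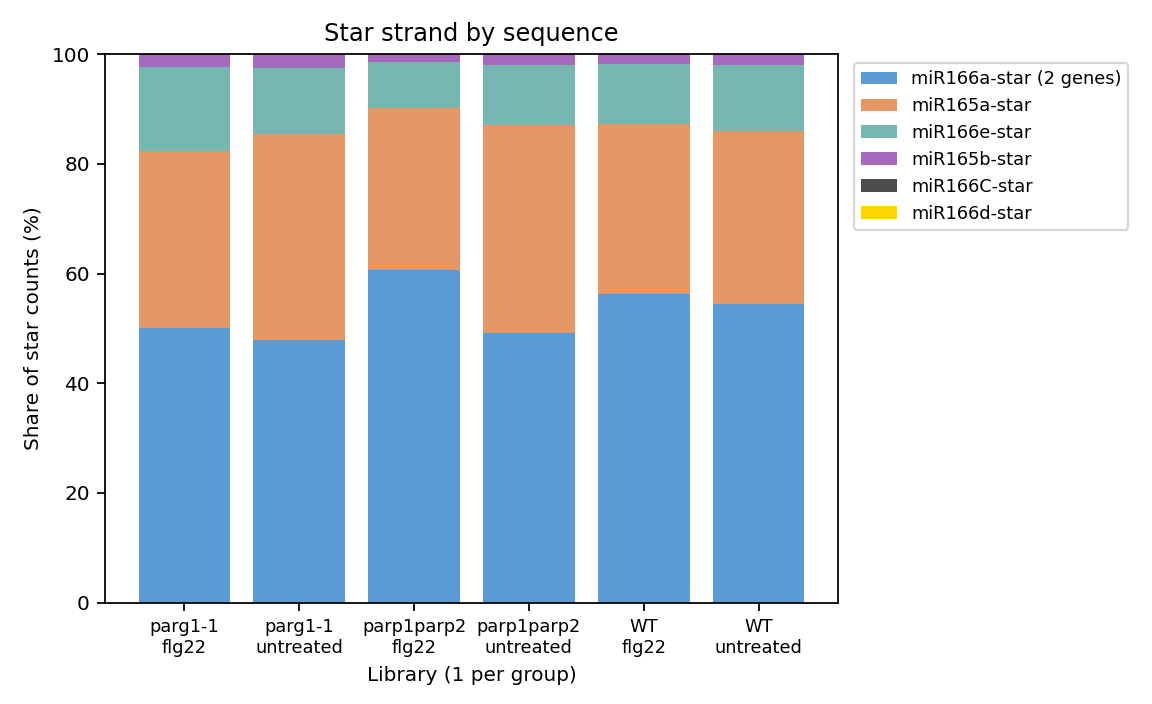
Share of each star sequence in the star counts of both families, in percent, 1 bar per library. miR166a-star, which comes from 2 genes, takes 47.8% to 60.7% and miR165a-star 29.6% to 38.0%.

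The star levels varied among libraries in their own way. miR166a-star had 3008 and 2494 scaled CPM in parg1-1 with flg22 and untreated, 3313 and 1912 in parp1parp2, and 2715 and 2960 in WT. Its lowest value was in untreated parp1parp2, next to its highest in parp1parp2 with flg22. miR165a-star had 1936 and 1964 scaled CPM in parg1-1, 1614 and 1482 in parp1parp2, and 1500 and 1711 in WT, and both parg1-1 libraries were above the others. miR166e-star had 918.8 and 624.9 scaled CPM in parg1-1, 454.9 and 422.3 in parp1parp2, and 527.6 and 662.4 in WT. Both parp1parp2 libraries were the lowest, and parg1-1 with flg22 was the highest. miR165b-star, with 9 to 21 counts per library, ranged from 71.7 to 128.6 scaled CPM.

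The strand ratio needs no scaling between libraries, since star and mature counts come from the same library. The star share of all miR165 and miR166 counts was 4.68% and 3.80% in parg1-1 with flg22 and untreated, 4.22% and 2.72% in parp1parp2, and 3.54% and 5.36% in WT. Untreated WT had the highest share and untreated parp1parp2 the lowest, with 95% intervals of 5.0% to 5.73% and 2.49% to 2.97%. The share was higher with flg22 in both mutants and lower with flg22 in WT, each with intervals that did not overlap. Over the 3 genotypes the mean was 4.15% ± 0.57 with flg22 and 3.96% ± 1.33 untreated (SD, n = 3 each; exact permutation p = 0.9, two-sided, not paired by genotype). Without parg1-1 with flg22 the difference of the means was -0.080 percentage points and without untreated parp1parp2 -0.43, against 0.19 with all libraries.

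Within miR166 alone the directions were the same, again with intervals that did not overlap, with star shares of 4.30% and 3.01% in parg1-1 with flg22 and untreated, 3.90% and 2.22% in parp1parp2, and 3.21% and 4.56% in WT. For miR165 the shares were 5.64% and 6.24% in parg1-1, 5.15% and 4.12% in parp1parp2, and 4.51% and 8.21% in WT. The intervals of the parg1-1 libraries overlapped, as did those of the parp1parp2 libraries, and those of WT did not. All other families together had star shares of 3.86% and 3.92% in parg1-1, 3.34% and 3.60% in parp1parp2, and 3.64% and 3.91% in WT. That range, 3.34% to 3.92%, was narrower than the range of 2.72% to 5.36% for miR165 and miR166, but the other families are a sum over many sequences and the widths were not tested against each other. Some counts also enter that sum more than once. miR171a-star and miR170-star have identical counts, and so do miR837-3p and miR837-5p-star, which stand on opposite sides of the ratio.

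**Figure D3:**
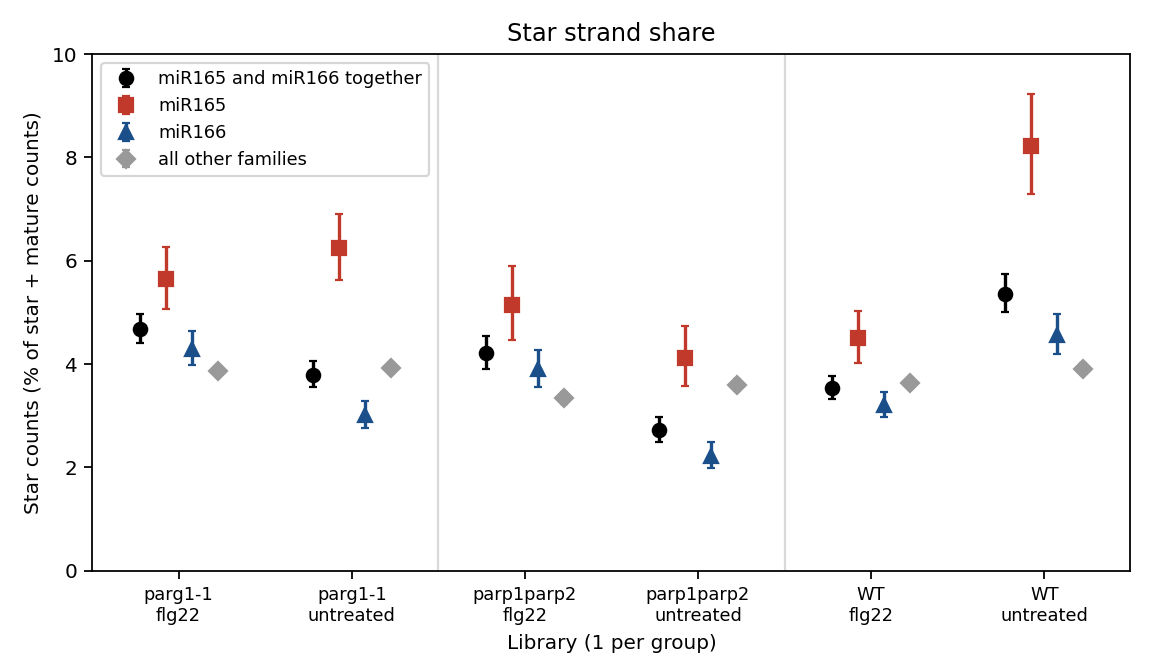
Star counts as a percentage of star plus mature counts, 1 point per library and 95% Clopper-Pearson intervals as bars, for both families together, for each family and for all other families. In WT the flg22 point for both families is below the untreated point, and in both mutants it is above.

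The first comparison asked whether flg22 changed these miRNAs across genotypes. No member passed the additive model of genotype and treatment (edgeR, adjusted over all 141 sequences). The background was 0 of 141 called (0%), with 3 at an unadjusted p under 0.05 and none of these (0) a member. DESeq2 also called 0, with 0 at an unadjusted p under 0.05. miR166a had a log2 fold change of 0.0065 ± 0.17 (SE), a sign that turned with library totals alone, with miR165 and miR166 left out of the scaling and with no count filter. miR165a had 0.21 ± 0.20 and miR166a-star 0.31 ± 0.25. miR166e-star had 0.12 ± 0.25, miR165a-star -0.031 ± 0.25 and miR165b-star -0.070 ± 0.38 (adjusted p = 0.984 for all 6). The median over the 6 was 0.062, beside -0.027 over all sequences tested. The model has 2 residual degrees of freedom. Its prior degrees of freedom, the weight given to a spread shared across sequences, were 29.1, so p-values rest mostly on that shared spread. With 1 library per group, a flg22 response that differs between genotypes is counted as residual spread in this model. It cannot be separated there from variation between libraries. The labels do not say whether the seedlings of different libraries were grown apart. The p-values therefore reflect the spread among these libraries alone, and the part that is variation between libraries may be technical.

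Within single genotypes, both mature strands had more scaled counts with flg22 in WT and fewer in parp1parp2, and the size of the parp1parp2 ratios depended on the scaling. The log2 ratio of flg22 to untreated for miR166a was -0.20 in parg1-1 (95% interval -0.23 to -0.17), -0.15 in parp1parp2 (-0.19 to -0.11) and 0.37 in WT (0.34 to 0.40). For miR165a it was 0.14 in parg1-1 (0.087 to 0.20), -0.21 in parp1parp2 (-0.28 to -0.15) and 0.72 in WT (0.66 to 0.78). Over the scalings tried, the parp1parp2 ratio ran from -0.32 to -0.024 for miR166a and from -0.39 to -0.090 for miR165a. The highest of these came with all loci as deposited, where the miR166a interval included 0 (-0.061 to 0.013). The star strands did not follow the mature ones. miR166a-star had 0.27 in parg1-1 (0.079 to 0.46), 0.79 in parp1parp2 (0.56 to 1.03) and, in WT, -0.12 (-0.31 to 0.063). miR166e-star had 0.56 in parg1-1 (0.19 to 0.93), and its intervals in the other genotypes included 0. With all loci as deposited, the WT intervals of miR166a-star (-0.45 to -0.073) and miR166e-star (-0.88 to -0.047) lay below 0.

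A stricter rule asked for a 2-fold difference, an interval without 0, and no fewer than 50 counts in the library with more. No member met it in any flg22 pair (0 of 6 in each). By that rule 1.42% of sequences were apart in parg1-1, 2.84% in parp1parp2 and 2.13% in WT. The interval excluded 0 for 4 of 6 members in parg1-1, 3 of 6 in parp1parp2 and 2 of 6 in WT, where it did so for 33.3%, 28.4% and 27.7% of all sequences. Counting error is smallest for abundant sequences, so narrow intervals around miR166a and miR165a say little about the spread between libraries, of which each group has 1.

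A genotype-specific response was tested with an extra model term, which leaves 1 residual degree of freedom. The prior degrees of freedom were infinite for the mutant terms, so the spread was the shared one. They were 4.18 for the WT term. For the parp1parp2 response against that of the other genotypes, miR166a-star had a log2 difference of 0.72 ± 0.45 (edgeR adjusted p = 0.602) and miR165a -0.64 ± 0.44 (adjusted p = 0.678), where 3.55% of sequences were called. For parg1-1, the member differences lay between -0.31 for miR166a and 0.68 for miR166e-star (adjusted p = 0.991 for both), and 0% of sequences were called, with 5 at an unadjusted p under 0.05. A term for the WT response, added after the values were seen, gave 0.55 ± 0.15 for miR166a and 0.76 ± 0.26 for miR165a. These failed correction (edgeR adjusted p = 0.596 and 0.697; unadjusted p = 0.0127 and 0.0308), with 0 of 141 called and 8 at an unadjusted p under 0.05. With DESeq2 size factors and with all loci as deposited, the edgeR adjusted p was 0.367 and 0.723 for miR166a and 0.435 and 0.723 for miR165a. DESeq2 was not run on the extra terms.

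**Figure D4:**
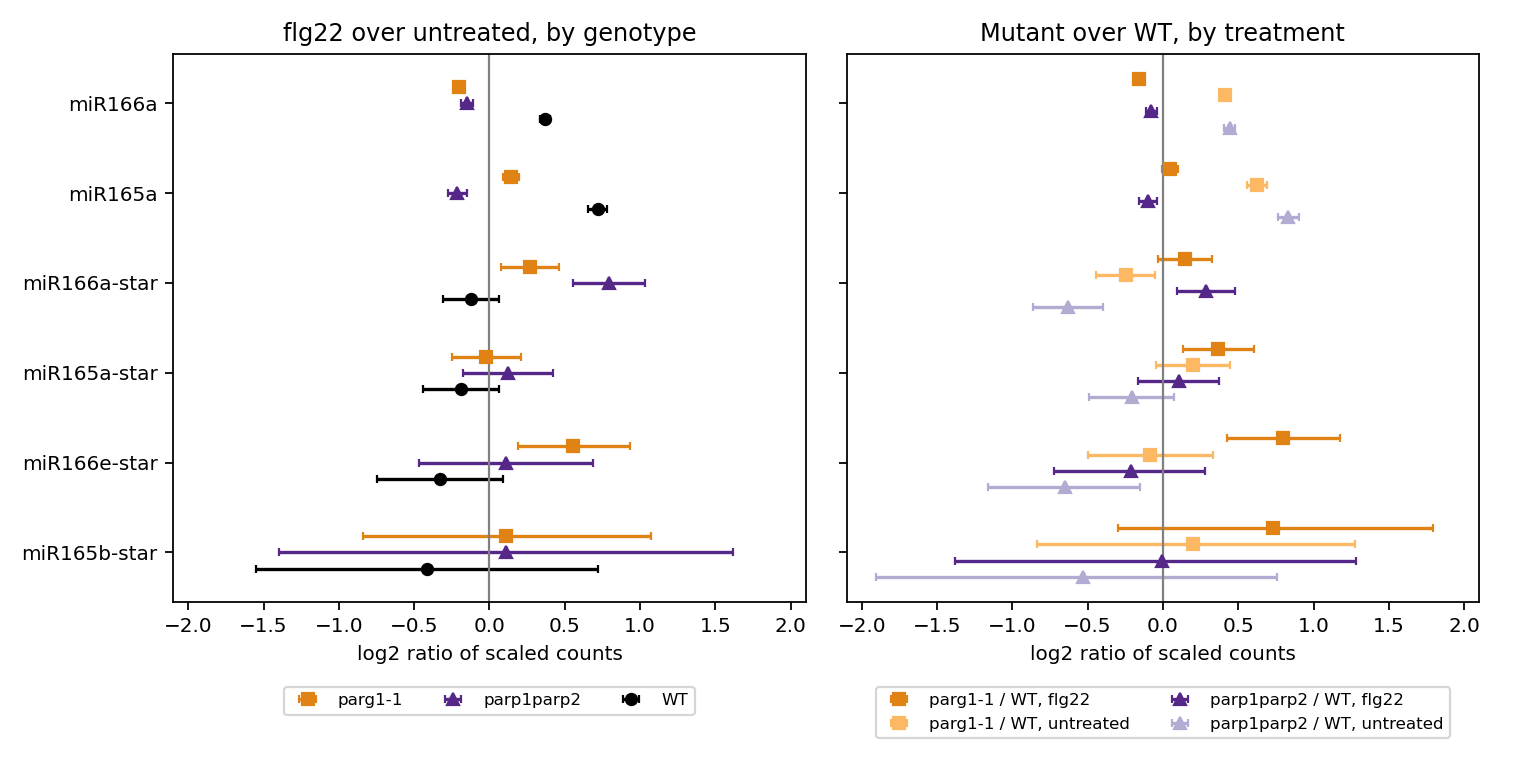
Log2 ratios of scaled counts between pairs of single libraries with 95% intervals for counting error, flg22 over untreated at left and mutant over WT at right. miR166a and miR165a in WT with flg22 lie at 0.37 and 0.72, and the mutant ratios of these sequences are higher untreated than with flg22.

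The second comparison asked whether parg1-1 differed from WT. No member passed (0 of 6; edgeR), none with an unadjusted p below 0.05 (0), and DESeq2 likewise called 0. The background was 8.51% of 141 sequences called, 2.13% higher and 6.38% lower. Those 12 calls were 1 with miR165 and miR166 left out of the scaling, 20 with all loci as deposited and 0 without either WT library. miR165b-star had a log2 fold change of 0.46 ± 0.44 (SE), miR166e-star 0.36 ± 0.30, miR165a 0.32 ± 0.25, miR165a-star 0.28 ± 0.30, miR166a 0.12 ± 0.21 and miR166a-star -0.064 ± 0.31. The lowest adjusted p among them was 0.5. The median of the 6 was 0.30, beside -0.0057 over all sequences tested. Without untreated WT the log2 fold change of miR166a was -0.10 and that of miR166a-star 0.33. miR165a was at 0.0065 without it. miR166a-star was also above 0 without untreated parg1-1 (0.063) or parg1-1 with flg22 (0.027).

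The single pairs show the same dependence. Untreated, the log2 ratio of parg1-1 to WT was 0.41 for miR166a (0.38 to 0.45) and 0.63 for miR165a (0.56 to 0.69). With flg22 it was -0.16 for miR166a (-0.19 to -0.13) and 0.048 for miR165a (-0.0033 to 0.10). That miR165a interval lay above 0 with every other scaling except library totals alone. miR166e-star had 0.80 with flg22 (0.43 to 1.18) and -0.084 untreated (-0.50 to 0.33). No member was 2-fold apart in either pair, where 10.6% of sequences were apart with flg22 and 4.96% untreated.

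The third comparison asked whether parp1parp2 differed from WT. No member passed in edgeR or DESeq2 (0 of 6 in each), 0 of the 6 had an unadjusted p below 0.05 in edgeR, and in edgeR 0.709% of all sequences were called. miR165a had a log2 fold change of 0.36 ± 0.25 and miR166a 0.17 ± 0.21, and the stars lay between -0.44 ± 0.31 for miR166e-star and -0.051 ± 0.31 for miR165a-star (adjusted p = 0.972 to 0.997). The sign of miR166a turned to -0.037 without untreated WT, and miR165a was then at 0.043. Without untreated parp1parp2 miR165a was at 0.026 and miR166a at 0.049. The median of the 6 was -0.11, beside 0.0089 over all sequences tested.

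Untreated, the log2 ratio of parp1parp2 to WT was 0.44 for miR166a (0.41 to 0.48) and 0.83 for miR165a (0.77 to 0.90). In the same pair it was -0.63 for miR166a-star (-0.86 to -0.40) and -0.65 for miR166e-star (-1.16 to -0.15). The miR165 stars had -0.21 (miR165a-star, -0.49 to 0.073) and -0.53 (miR165b-star, -1.90 to 0.76), with intervals that included 0. The mature strands thus lay above untreated WT and the miR166 stars below it. With flg22 the ratio was -0.076 for miR166a (-0.11 to -0.042), -0.10 for miR165a (-0.16 to -0.041) and 0.29 for miR166a-star (0.094 to 0.48). No member was 2-fold apart, where 2.84% of sequences were apart with flg22 and 3.55% untreated. The mutants were set against the same WT libraries, so their values are not independent.

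Set directly against parg1-1, parp1parp2 had a log2 fold change of -0.81 ± 0.31 for miR166e-star, the member with the smallest p, which failed correction (edgeR adjusted p = 0.104; unadjusted p = 0.0133). It was lower in parp1parp2 in 2 of 2 treatments. Without untreated parg1-1 it passed, with -1.30 ± 0.35 (adjusted p = 0.0121), and over all settings the adjusted p lay between 0.0121 and 0.916. The other members lay between -0.73 ± 0.47 for miR165b-star and 0.055 ± 0.21 for miR166a. The background was 5.67% of sequences called, 8 in all, which was 13 with DESeq2 size factors and 0 with miR165 and miR166 left out of the scaling or without either WT library. DESeq2 called 0 of the 6 members.

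**Figure D5:**
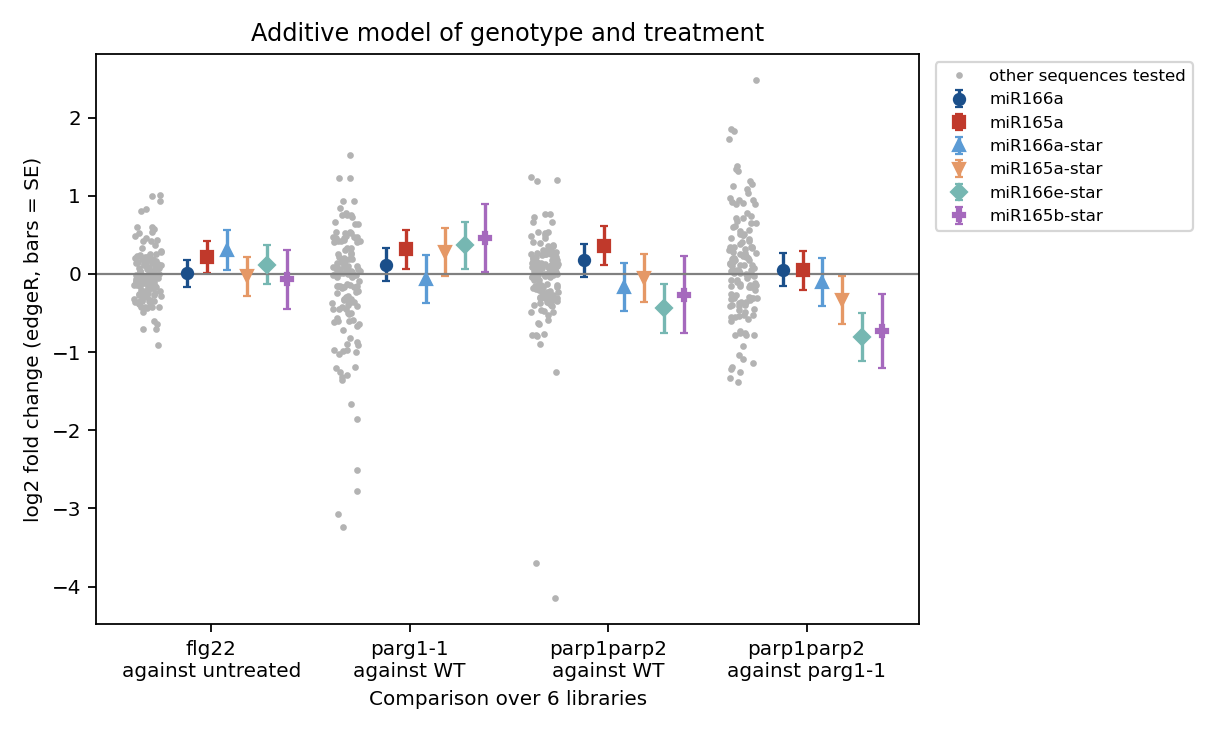
Log2 fold changes of the additive model for the 6 tested members, with SE as bars, beside the other sequences tested (grey), for each of the 4 comparisons. All members lie between -0.81 and 0.46.

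Other miRNAs of leaf, meristem and polarity control were described by a list of families: miR390, which triggers the trans-acting siRNAs that oppose miR166 across the leaf, miR319 (TCP factors), miR164 (CUC factors), miR394 (LCR), miR396, miR170 and miR171 (SCARECROW-like factors) and miR160 (auxin response factors). The 21 rows tested include miR171a-star and miR170-star, which have the same counts. Of these rows 0 passed for flg22 (edgeR; 0 at an unadjusted p under 0.05) and the median log2 fold change was -0.10. In parg1-1 against WT 1 fell, miR170, by a log2 fold change of -1.86 ± 0.49 (edgeR adjusted p = 0.0096), with a list median of -0.0053. That is 1 of 21, where 8.51% of all sequences were called. miR170 had 42.9 and 29.8 scaled CPM in parg1-1 with flg22 and untreated, and 150.0 and 117.3 in WT, on 7 and 5 counts against 29 and 17. The row of miR170-star, with the counts of miR171a-star, had 0.53 ± 0.30 in the same comparison. In parp1parp2 against WT 0 passed (0 at an unadjusted p under 0.05), with a median of 0.12. Against parg1-1, miR170 (1.85 ± 0.51, adjusted p = 0.0303) and miR160a (0.97 ± 0.29, adjusted p = 0.038) were higher in parp1parp2, 2 of 21 where 5.67% of all sequences were called (edgeR). miR160a had 7614 and 8302 scaled CPM in parp1parp2 with flg22 and untreated, and 3222 and 4993 in parg1-1. The fold changes stayed on their side when 1 library was left out, with ranges of -1.997 to -1.552 for miR170 against WT, 1.51 to 2.09 for miR170 against parg1-1 and 0.65 to 1.12 for miR160a. These fits leave 1 residual degree of freedom, and most of the calls did not pass in them. The cause was not tested. miR170 against WT was lost without any of the libraries except parp1parp2 with flg22, at an edgeR adjusted p of up to 0.4596, and both calls against parg1-1 were lost without any of the 6 libraries, with an adjusted p of up to 0.916 for miR160a and 0.5094 for miR170. With miR165 and miR166 left out of the scaling all 3 calls were lost (edgeR adjusted p = 0.0961 and, against parg1-1, 0.1021 for both), and DESeq2 gave miR160a 0.0312 and miR170 0.4818 against parg1-1 and no adjusted p for miR170 against WT.

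The level of miR166a over the 6 libraries was most like that of miR393b-star (Pearson r = 0.961 of log2 scaled CPM) among 135 sequences outside the families. miR861-3p followed (r = 0.883), with 4 to 17 counts per library, and a row of the same counts named miR861-5p-star. For miR165a the nearest were miR156f-star (r = 0.926), with 2 to 20 counts, and miR861-3p (r = 0.9). miR166a and miR165a correlated with each other at r = 0.842. The star strands had r between -0.61 and -0.26 with miR166a. These are descriptions over 6 libraries, in each of which all sequences share 1 depth and 1 scaling factor, and untreated WT is the lowest library for each of miR166a, miR165a, miR393b-star, miR861-3p and miR156f-star.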

How the data were processed

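Small RNA counts of 6 libraries, 1 per group, were used. The authors deposited whole-number read counts for 679 named intervals per library, with no strand column. The submitters' processing notes name the TAIR10 build, Bowtie 0.12.8 and bedtools without saying what each did. How reads were assigned to intervals is not stated in the sources used here. TAIR10.1 (RefSeq) supplied sequences and annotation. All 337 mature intervals coincided with its miRNAs, so its coordinates match the files'.

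Rows of the same family and arm with identical counts in all libraries were counted once, since a read of a repeated sequence appears at each locus; 5 tested rows still shared counts with a row of another name. edgeR 4.0.16 (R 4.3.3; glmQLFit and glmQLFTest, two-sided, TMM scaling, additive genotype and treatment) was the main test, on rows that reached 10 counts in 2 or more libraries, at Benjamini-Hochberg adjusted p under 0.05. SE is the log2 fold change over the root of F. In simulated data, 96.9% of 4-fold changes in parg1-1 against WT were recovered over 5 simulations, with 6 false calls (136 rows tested in the first). The simulations gave all rows the same dispersion, estimated from these data, and no effect of flg22 or genotype-specific response. The recovery in the real libraries may therefore be lower. Smaller changes were not simulated. Alternatives were DESeq2 1.42.0, other scalings and filters, and leaving out each library. Pairs of single libraries were compared by an exact conditional binomial (Clopper-Pearson) 95% interval, and shares by a Clopper-Pearson interval, with no test. Means of 3 against 3 libraries used an exact permutation test (scipy 1.17.1) that did not pair libraries by genotype. Folding used RNAfold 2.7.2.

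The text names all member sequences, called members of the other polarity families, the 3 sequences most correlated with miR166a and with miR165a, and neighbours of both in the order of levels. The members, lists and tests were chosen with earlier results of these data known.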

Additional observations from a re-analysis of the deposited data

Results flagged for a closer look

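The star share of miR165 and miR166 differed in direction between genotypes with flg22. It was 0.884 percentage points higher with flg22 in parg1-1 and 1.49 higher in parp1parp2, with a change of -1.81 in WT, and the intervals of the 2 libraries did not overlap in any genotype. This difference between genotypes was not tested, since each share comes from 1 library. The mature strands also differed in direction between genotypes. The log2 ratio of flg22 to untreated for miR166a was -0.20 in parg1-1, -0.15 in parp1parp2 and 0.37 in WT. For miR165a it was 0.14 in parg1-1, -0.21 in parp1parp2 and 0.72 in WT. With all loci as deposited the parp1parp2 ratio of miR166a was -0.024, with an interval that included 0. The extra model terms for these sequences failed correction. Untreated WT was the lowest library for both mature strands and the highest for the star share.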

How the results depend on the processing

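The additive model already sets flg22 against untreated within each genotype. The labels give no replicate numbers to pair libraries by, beyond that genotype term. The permutation tests of shares did not use the pairing by genotype. No member was called in any setting, except miR166e-star in parp1parp2 against parg1-1 without untreated parg1-1. Of the 22 pair ratios whose interval excluded 0, none changed sign under another scaling, and 1 had an interval that included 0 with all loci as deposited (miR166a in parp1parp2, -0.024). Other intervals came to exclude 0. As deposited these were miR165a-star, miR166a-star and miR166e-star for flg22 in WT, and miR165a-star in untreated parp1parp2 over WT. For parg1-1 over WT with flg22, miR165a and miR166a-star did so with every other scaling except library totals alone.

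Counts of calls over all sequences moved as follows; the cause was not tested. For parg1-1 against WT, 12 called became 1 with miR165 and miR166 left out of the scaling, 7 with DESeq2 and 20 with all loci as deposited, and 0 to 19 without 1 library (0 without either WT library, 2 without parg1-1 with flg22 or untreated parp1parp2, 19 without parp1parp2 with flg22). For parp1parp2 against WT, 1 became 2 with no count filter and 0 to 5 without 1 library (0 without WT with flg22 or untreated parp1parp2, 5 without parp1parp2 with flg22). For parp1parp2 against parg1-1, 8 became 13 with DESeq2 size factors, 0 without the families in the scaling, 3 with DESeq2, 2 as deposited, and 0 to 11 without 1 library (0 without either WT library or parg1-1 with flg22, 1 without untreated parp1parp2, 2 without parp1parp2 with flg22, 11 without untreated parg1-1). For flg22 the count was 1 without parp1parp2 with flg22 and 0 otherwise. The parp1parp2 response term called 5, or 11 as deposited, and the WT term 0, or 2 with DESeq2 size factors and 5 as deposited.

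Signs turned near 0. In parp1parp2 against parg1-1, miR165a (0.045) was -0.0087 with DESeq2 size factors and with the DESeq2 test, -0.017 without the families in the scaling and -0.11 as deposited, and miR166a (0.055) was -0.011 and -0.095 in the last 2. For flg22, miR166a (0.0065) was -0.0084 with library totals alone, -0.035 without the families in the scaling and -0.018 with no count filter. miR166a-star in parg1-1 against WT (-0.064) was 0.010 without the families in the scaling. miR166e-star in the parp1parp2 term (-0.020) was 0.0097 with DESeq2 size factors and 0.16 as deposited.

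Without 1 library, the flg22 values ran from -0.0056 to 0.45 for miR165a, -0.14 to 0.14 for miR166a, -0.12 to 0.15 for miR165a-star, -0.24 to 0.23 for miR165b-star and -0.18 to 0.45 for miR166e-star. In parg1-1 against WT they ran from -0.10 to 0.54 for miR166a and -0.23 to 0.33 for miR166a-star. In parp1parp2 against WT they ran from -0.037 to 0.46 for miR166a, -0.16 to 0.12 for miR165a-star, -0.53 to 0.044 for miR165b-star and -0.49 to 0.22 for miR166a-star. In parp1parp2 against parg1-1 they ran from -0.32 to 0.34 for miR165a, -0.12 to 0.16 for miR166a and -0.49 to 0.21 for miR166a-star. The call of miR160a (0.97 on the log2 scale) was also lost with library totals alone (0.95) and as deposited (0.83), and that of miR170 against parg1-1 as deposited (1.70). The star share difference for flg22 ran from -0.43 to 0.89 percentage points.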
